A study of Mus musculus with 18 samples.

Results

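The comparison sets dendritic cells (DCs) labelled as knockout for the phospholipase cPLA2 and squeezed to a height of 3 µm against DCs that were matured with lipopolysaccharide (LPS). Its members are the 3 libraries labelled confined knockout (KO) and the 6 libraries labelled LPS, wild-type (WT) and KO labels pooled, which makes 9 of the 18 libraries in the series. The question is which parts of the maturation program KO cells reach under confinement and which they lack. Tests cover the 17875 genes that reach 10 normalized counts in 3 or more of the 18 libraries.

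Immature DCs sample their surroundings by phagocytosis and macropinocytosis. On sensing a microbial product such as LPS through Toll-like receptor 4, they switch on NF-kB and interferon signalling, show co-stimulatory ligands, secrete cytokines and chemokines, and raise the chemokine receptor CCR7, which guides them to lymph nodes. Some DCs also raise CCR7 in the absence of microbial products, with little of the inflammatory output. The enzyme cPLA2, encoded by *Pla2g4a*, frees arachidonic acid from membranes and can be activated when the nuclear envelope is stretched.

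Bone marrow cells were cultured for 10 days in medium with granulocyte-macrophage colony-stimulating factor from J558 cell supernatant, and the study obtained its KO cells from mice in which Itgax-cre removes a floxed *Pla2g4a*, so deletion follows CD11c expression in culture. The KO cells used here were either left nonconfined and collected at the end of culture (3 libraries, the starting level) or confined at 3 µm and collected 4 h later (3 libraries). The LPS cells, from cultures labelled WT or KO (3 libraries each), were given LPS (100 ng/ml), for 30 min by the labels, then washed and left until the next day. Nonconfined WT libraries (3) serve below to choose genes that move with LPS. Stimulus, time since the stimulus, the confining device and, by Y-linked reads, in part the sex of the donors differ between confined KO and LPS cells, and their parts in a difference cannot be told apart. The labels do not say whether replicates are separate animals, so p-values measure the spread between libraries only. Several kits for library preparation are named in the protocol without saying which library was made with which.

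Levels are read counts on a gene divided by a size factor per library, called normalized counts, with no scaling for gene length, so levels are not compared between genes. Differences are log2 differences of confined KO minus LPS unless another pair is named, so negative values mean lower in confined KO. A gene is called when its adjusted p is under 0.05 and its absolute log2 difference is above 1; counts in lists, those of 0 included, are limma calls by this rule. Over all genes tested, 10.7% were called higher and 12.9% lower than LPS, and 6.43% higher and 5.53% lower than nonconfined KO. LPS against nonconfined cells of both genotypes raised 15.6% and lowered 13.4%. List counts below are to be read beside these shares. Confined KO libraries hold 33027230 to 39400286 reads on genes and LPS libraries 39609637 to 61300021.

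The targeted gene still gives reads in every group. *Pla2g4a* stood at 548, 542 and 533 normalized counts in nonconfined KO and 923, 871 and 919.5 in confined KO, against 697, 686 and 770.4 in nonconfined WT. LPS_WT libraries held 1005, 969 and 967 and LPS_KO libraries 1065, 1032 and 1028. Nonconfined KO values lie below all 3 nonconfined WT values, but the libraries labelled LPS_KO lie above all 3 labelled LPS_WT. Confined KO minus LPS was -0.16 (95% CI -0.27 to -0.05, adjusted p 0.0102), a direction that flips to 0.28 when library totals are made equal. Reads over the whole gene do not show how much of the floxed segment was deleted.

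The 6 LPS libraries do not group by their labels WT and KO. Y-linked reads mark the sex of donors, not the *Pla2g4a* genotype. The Y-linked gene *Ddx3y* was read at 949, 981 and 874 in nonconfined KO and 1036, 920.2 and 948 in confined KO, and at 3.05, 0 and 1.97 in nonconfined WT. In the libraries labelled LPS_WT it stood at 1271, 0 and 662 in replicates 1 to 3, and in those labelled LPS_KO at 2.12, 1476 and 783. *Lrmda* gave the same order, with 401, 24.7 and 243 in LPS_WT and 22.3, 381 and 241 in LPS_KO, against 378, 318 and 332 in nonconfined KO and 29.7, 34.1 and 16.7 in nonconfined WT. So the library labelled LPS_WT replicate 1 pairs with LPS_KO replicate 2 (high), LPS_WT replicate 2 with LPS_KO replicate 1 (near 0 for *Ddx3y*), and LPS_WT replicate 3 with LPS_KO replicate 3 (between). *Eif2s3y*, *Kdm5d* and *Uty* show the same 3 pairs, and *Acot1* does too, at a lower level (54.9, 0.915 and 33.6 in LPS_WT, 0, 49.2 and 40.7 in LPS_KO). These genes were chosen after their values were seen. Since all KO libraries outside LPS carry Y-linked reads and no WT library there carries more than a few, sex of the donors and genotype cannot be told apart in nonconfined KO against WT, and a Y-linked read does not contradict a label. All 3 confined KO libraries carry such reads and the LPS libraries are mixed, so sex of the donors differs in part between the compared groups as well. The pairs are not copies of 1 library: chi-square per gene between recovered reads was 14.9, 5.77 and 7.07, where counting error alone would give about 1. This measure grows with read depth and was not corrected for it. By it LPS_KO replicate 2 has a lower value to LPS_KO replicate 3 (11.7) than to its partner LPS_WT replicate 1. LPS_WT replicate 1 has like values to LPS_KO replicate 2 (14.9) and LPS_WT replicate 3 (15.1), so its nearest library is not settled.

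**Figure D1:**
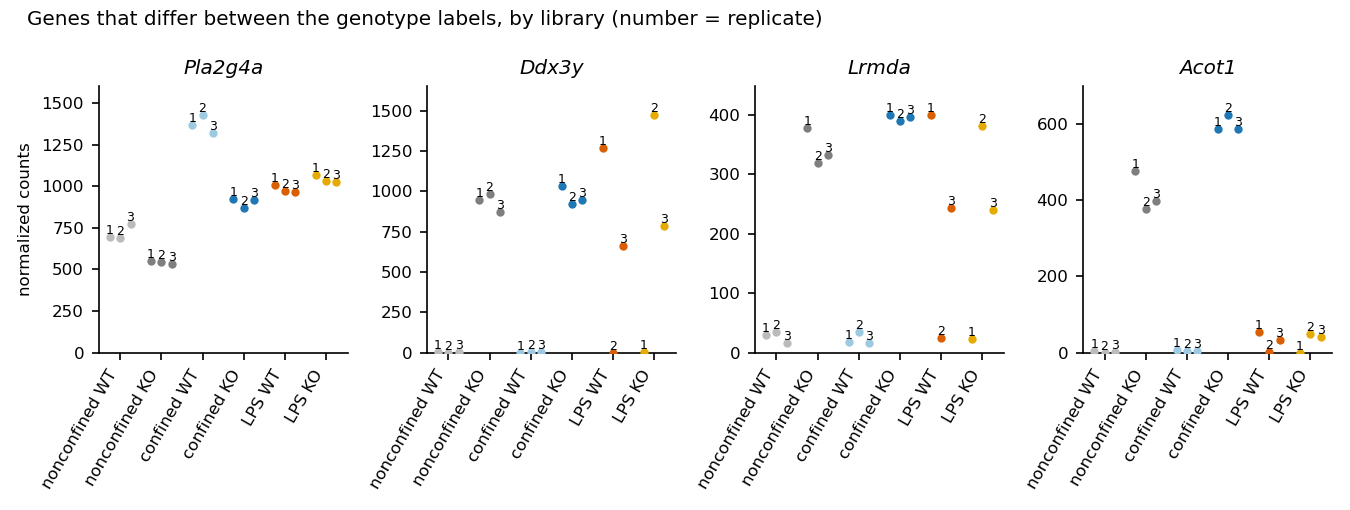
Normalized counts (linear axis) of 4 genes in each of the 18 libraries, grouped by label, with the replicate number beside each point. *Ddx3y*, *Lrmda* and *Acot1* part nonconfined and confined KO from WT, while the LPS libraries fall into 3 pairs that each join a library labelled WT with one labelled KO.

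Between the LPS labels themselves limma called 0 genes at an adjusted p under 0.05, with 890 of 17875 at an unadjusted p under 0.05, and edgeR and DESeq2 also gave 0 after adjustment, with 812 and 831 before it. These fits do not pair the libraries, so the spread between the pairs above enters their error. A difference between labels within pairs was not tested. All 6 libraries pooled are the reference here, and the main counts are also given against each pair alone. Nonconfined KO against nonconfined WT, which shares no library with confined KO against LPS, called 206 genes (1.15% of those tested). Of these 206, 83 were also called in confined KO against LPS, 40.3% of the first list and 1.96% of the second. Over all genes tested, 23.6% were called in confined KO against LPS. Where such a gene is named below, its difference between nonconfined KO and WT, be it from genotype, sex or donor, stands beside it.

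The label DC was read against lists of marker genes. *Itgax* (CD11c) stood at 4528, 4227 and 4194 in confined KO and at 6719, 6938 and 7192 (lowest, median, highest) in LPS, and *Zbtb46*, a factor of conventional DCs, at 468, 554 and 495 against 1192, 1221 and 1379. *Flt3*, a growth factor receptor of DC precursors, was at 27, 34.1 and 30.1 in confined KO and 89.1, 135 and 154 in LPS. All 14 DC markers passed the filter, and these 3 genes are lower in each confined KO library than in any LPS library (*Zbtb46* -1.31, or -0.87 and not called with library totals made equal). The DC markers, led by *Cd74*, sum to 399706, 375794 and 394137 normalized counts in confined KO, 505162, 493543 and 501161 in nonconfined KO and 637929.6, 666962 and 699854 in LPS; 8 of 14 were called lower than LPS and 1, *Cd209a*, higher (12.9% and 10.7% of all genes tested). With library totals made equal, 6 of the 14 were called lower than LPS and 1 higher. The largest deficits among the 14, at the main scaling, were *Fscn1* -5.02, *Irf8* -2.66 and *Ccr7* -2.51.

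Markers of other cells are also present in these bulk cultures, so fewer cells of a type and less RNA per cell cannot be told apart. Macrophage markers, led by *Lyz2*, sum to 436016, 438670.3 and 445387 in confined KO, 388476, 367773 and 377424 in nonconfined KO and 307694, 331697 and 348966 in LPS. Of 14, 1 was called higher and 1 lower (*Fcgr1* -1.57), beside 10.7% and 12.9% of all genes. With library totals made equal, 4 were higher and 1 lower. Neutrophil markers, led by *S100a9*, sum to 385936, 393548 and 380302 in confined KO, 425048, 385264 and 411659 in nonconfined KO and 366549.5, 393146 and 422066 in LPS. Of 14, 4 were called higher and 1 lower, beside 10.7% and 12.9% of all genes. *Mmp9* (1.54), *Retnlg* (1.43) and *Cxcr2* (1.41) were higher and *Lcn2* (-1.97) lower. The macrophage sum is higher in each confined KO library than in any LPS library, while at the main scaling the neutrophil sums of confined KO lie inside the LPS range. With library totals made equal, the neutrophil sums of confined KO lie above that range. *Mmp9* and *Retnlg* also differ between nonconfined KO and WT, by 2.03 and 1.25.

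Eosinophil markers, led by *Prg2*, sum to 16529.7, 16005 and 16942 in confined KO, 68025, 63640.2 and 65566 in nonconfined KO and 23262, 31984 and 40025 in LPS. Confined KO is lowest in each library, and 2 of 6 markers tested (*Epx* -1.45, *Il5ra* -1.18) were called lower than LPS, or 1 with library totals made equal, where *Il5ra* was at -0.74. *Prg2* and *Epx* also differ between nonconfined KO and WT, by 1.20 and 1.33. Mast cell and basophil markers, led by *Hdc*, sum to 9125, 8814 and 9123 in confined KO, 15854, 15383 and 15468 in nonconfined KO and 19559, 20601 and 22051 in LPS, with *Hdc* -2.89 and *Cma1* -1.40 lower and *Kit* 1.03 higher among 10 tested. Without confined KO replicate 2 or with library totals made equal *Cma1* was at -0.85 or -0.97, under the threshold, as was *Kit* at 1.00 without LPS_WT replicate 2 or 0.98 without LPS_KO replicate 1. Plasmacytoid DC markers, led by the interferon-stimulated *Bst2*, sum to 7444, 7671 and 7268 in confined KO, 11856, 10207 and 11723 in nonconfined KO and 23284, 24384 and 27944 in LPS, with *Tcf4* -2.72, *Ccr9* -1.93 and *Bst2* -1.69. B cell markers sum to 71.2, 55.4 and 47.4 in confined KO, 75.2, 77.3 and 58.2 in nonconfined KO and 47.7, 92.1 and 97.7 in LPS. T and NK cell markers, led by *Cd3g*, sum to 1065, 1308 and 1187 in confined KO, 3225, 2917 and 3139 in nonconfined KO and 545, 593 and 607 in LPS. Erythroid and megakaryocyte markers, led by *Ppbp*, sum to 6886, 6677 and 7087 in confined KO, 1788, 1680.3 and 1764 in nonconfined KO and 3164, 4568 and 5878 in LPS. Confined KO lies below nonconfined KO in each library for the eosinophil, mast cell and basophil, plasmacytoid DC, and T and NK cell sums. By the Methods the semiadherent cells were kept as DCs, which leaves out nonadherent granulocytes and the more adherent macrophages, yet their markers are read here. The part of such cells in the differences below was not tested.

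In the lists of scarce lymphocyte markers, the calls of *Ms4a1* and *Cd8b1* rest on few reads. *Ms4a1* (CD20) was at 2.16, 14.9 and 0 in confined KO and 6.53, 12.9 and 21 in LPS, ranges that overlap (-1.83, adjusted p 0.0344). Its call is lost without confined KO replicate 1 (-1.72) or 3 (-0.89), LPS_WT replicate 1 (-1.67) or 2 (-1.75), or LPS_KO replicate 2 (-1.70), as well as with library totals made equal (-1.48), and in edgeR and DESeq2. *Cd8b1* had 2 reads in confined KO in all, against 9.15, 16.1 and 18.3 normalized counts in LPS, a ratio of 21.4 with a 95% counting interval of 6.01 to 187. *Cd3g*, of the T cell receptor complex, was higher, at 929, 1158 and 1002 against 355, 413 and 439 (1.34, adjusted p 1.02e-12).

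Confined KO and LPS cells differ widely: 1914 genes were called higher in confined KO and 2313 lower, of 17875 tested. The lower side reaches further. Among called genes, 494 were lower by more than 3 on the log2 scale and 88 by more than 5, against 74 and 3 higher by as much. The split between directions depends on scaling. LPS libraries hold more normalized counts in all, on average 48720243 against 35818964, and making library totals equal moves the median of all genes by 0.44, which gives 4021 higher and 1580 lower. Of called genes, the share higher in confined KO was 45.3% by the main scaling and 71.8% by equal totals. TMM scaling gave 2048 and 2196, edgeR 2123 and 2163, and DESeq2 2093 and 2244. The main scaling leaves the median gene at 0.03, and directions below are relative to that median.

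Each LPS pair alone gives like counts. Against LPS_WT replicate 1 with LPS_KO replicate 2, 1755 genes were called higher and 2142 lower. Against LPS_WT replicate 2 with LPS_KO replicate 1 the counts were 1755 and 2218, and against LPS_WT replicate 3 with LPS_KO replicate 3 1735 and 2196. Among genes named here, calls lost against the first pair alone were *Mmp9* (0.94), *Kit* (0.87), *Ppbp* (0.52), *Scd1* (-0.77), *Scd2* (-0.75), *Mrc1* (0.73); against the second *Epx* (-0.95), *Il5ra* (-0.92), *Ms4a1* (-1.80), *Vsir* (0.93), *Trib3* (0.82); and against the last *Il5ra* (-0.99), *Ppbp* (0.95), *Ms4a1* (-1.29), *Mrc1* (0.97), *Trib3* (0.93). Over all genes, confined KO libraries lie at a root mean square log2 distance of 1.01 from nonconfined KO, 1.32 from LPS_WT and 1.35 from LPS_KO, with 0.69 among themselves. They thus stand nearer to the starting state than to LPS.

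How much of the LPS program moves at all in KO cells under confinement can be read with separate libraries. Genes were chosen in LPS_WT against nonconfined WT and then read in confined KO against nonconfined KO, which shares no library with it. Of 2688 genes raised by LPS, 537 (20%) were called higher in confined than in nonconfined KO cells, 214 (7.96%) lower, and 1937 not called. Over all genes tested these shares were 6.43% higher and 5.53% lower. The raised genes had a median log2 difference of 0.35 in confined against nonconfined KO (all genes 0.01). Of 2201 genes lowered by LPS, 366 (16.6%) were lower in confined KO and 18 higher, with a median of -0.46. So KO cells under confinement move part of the LPS genes in the LPS direction and a smaller number the other way. Choosing with the LPS_KO libraries gave 533 higher and 216 lower of 2676 raised genes.

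**Figure D2:**
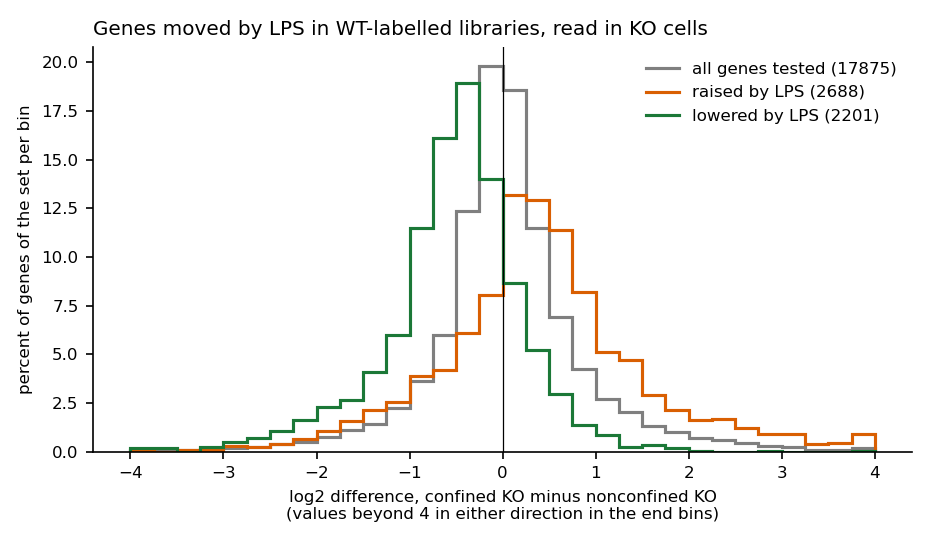
Percent of genes per bin of 0.25 in log2 difference, confined KO minus nonconfined KO, for all genes tested (grey), genes raised (orange) and genes lowered (green) in LPS_WT against nonconfined WT. The raised genes lean right (median 0.35) and the lowered genes left (median -0.46) of all genes (0.01).

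The migratory program is not reached. *Ccr7*, the lymph node homing receptor, stood at 17366, 15815 and 16173 in nonconfined KO, 8907, 8891 and 8957 in confined KO and 47815, 51077 and 54853 (lowest, median, highest) in LPS. All confined KO libraries lie below every nonconfined KO and every LPS library. The difference was -2.51 (95% CI -2.60 to -2.43, adjusted p 4.77e-22) from LPS and -0.88 (95% CI -0.98 to -0.78, adjusted p 3.51e-12) from nonconfined KO, so confined KO cells hold 17.5% of the LPS level. *Fscn1*, the actin bundler of mature DC dendrites, shows the widest gap of this list, with 17172, 16363 and 17384 in nonconfined KO, 2461, 2462 and 2508 in confined KO and 79322, 80124 and 81554 in LPS. Its difference was -5.02 (95% CI -5.09 to -4.95, adjusted p 5.95e-28) from LPS and -2.78 (adjusted p 8.58e-22) from nonconfined KO.

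Of 17 migration genes tested, 14 were called lower than LPS and 1 higher, beside 12.9% and 10.7% of all genes, with a median of -1.94. Against nonconfined KO 0 were called higher and 4 lower (median -0.58), and LPS against nonconfined cells of both genotypes raised 11 and lowered 0 (15.6% and 13.4% of all genes). These comparisons share libraries, and their values are set side by side only. *Marcksl1*, an actin-regulating substrate of protein kinase C, was at 7109, 6877 and 6897 in confined KO and 104595, 108637 and 109703 in LPS (-3.95, adjusted p 8.13e-26), and *Nudt17* at 187, 219.7 and 211 against 2344, 2435 and 2545 (-3.57, adjusted p 3.55e-20). Neither overlaps with LPS. The exception was *Cxcr4*, the receptor for CXCL12: 5908, 5981 and 6207 in confined KO against 2698, 2826 and 2944 in LPS and 4890, 4698 and 4629 in nonconfined KO, 1.09 (adjusted p 1.2e-16) from LPS.

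**Figure D3:**
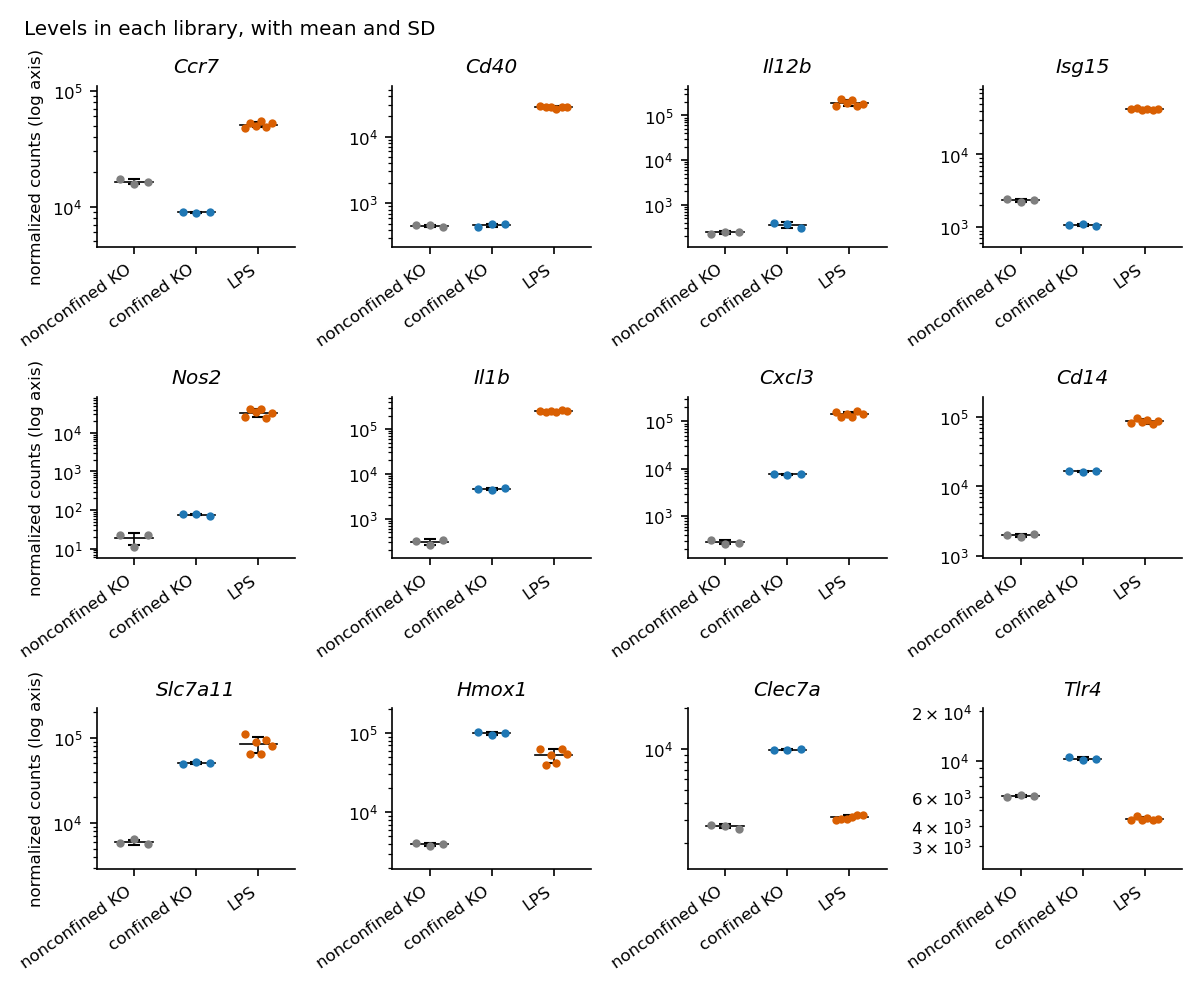
Normalized counts (log axes) of 12 genes in 3 nonconfined KO (grey), 3 confined KO (blue) and 6 LPS libraries (orange), with mean and SD. *Ccr7* and *Isg15* lie below the starting level, *Cd40* and *Il12b* lie near it, *Nos2*, *Il1b*, *Cxcl3* and *Cd14* rise part of the way, *Slc7a11* comes near the LPS level, and *Hmox1*, *Clec7a* and *Tlr4* lie above it.

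Signals to T cells lag behind as well. *Cd40*, which receives help from CD40 ligand on T cells, was at 473, 473 and 444 in nonconfined KO and 440.2, 493 and 485 in confined KO, and at 25947, 27321 and 28428 in LPS. The confined and nonconfined KO ranges overlap, far below LPS, and the difference from LPS was -5.85 (95% CI -5.96 to -5.75, adjusted p 7.3e-27). *Cd86*, a ligand of CD28, stood at 4027, 4172 and 3909 in nonconfined KO, 4115, 4077 and 4053 in confined KO and 11454, 12379 and 12645 in LPS (-1.58, 95% CI -1.66 to -1.51, adjusted p 1.43e-19), again with nonconfined and confined KO overlapping. *Cd80*, the other CD28 ligand, was 3408, 3169 and 3255 in confined KO, above the 2283, 2232 and 2254 of nonconfined KO (0.54, adjusted p 1.6e-06, under the fold threshold) and at 36.6% of LPS (-1.44, adjusted p 4.83e-15). With library totals made equal *Cd80* was -1.0 from LPS, just short of the call.

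*Cd83*, which stabilises CD86 and MHC class II at the surface, reached 21.1% of the LPS level, *Cd70*, the ligand of CD27, 2.12%, and *Tnfsf15* (TL1A) 0.493%. *Tnfsf15* has the largest deficit of the list, with 269.8, 238 and 297 in confined KO against 51688, 54729 and 56609.8 in LPS (-7.66, 95% CI -7.78 to -7.54, adjusted p 1.73e-27). In all, 10 of 12 co-stimulatory ligands were called lower than LPS and 0 higher (median -2.46), beside 12.9% and 10.7% of all genes. Against nonconfined KO 0 were called higher and 2 lower (median -0.21), beside 6.43% and 5.53% of all genes. LPS raised 10 of them and lowered 1, beside 15.6% and 13.4% of all genes.

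Regulatory molecules follow the same order, with some movement. Of 15, 11 were called lower than LPS and 1 higher (median -1.73), beside 12.9% and 10.7% of all genes. Against nonconfined KO 4 were called higher and 1 lower, beside 6.43% and 5.53% of all genes. *Cd274*, encoding PD-L1, stood at 2466, 2934 and 2733 in nonconfined KO, 5166, 4714 and 5017 in confined KO and 17375, 18233 and 19594 in LPS. The 3 groups do not overlap, and confined KO reached 27% of LPS (-1.89, adjusted p 2.14e-18; 0.88, adjusted p 8.72e-11 from nonconfined KO). *Il10* was near 0 in nonconfined KO (3.13, 0 and 0), 18.3, 16 and 9.11 in confined KO and 1974, 2132 and 2405 in LPS (-7.16, 95% CI -7.82 to -6.51, adjusted p 1.34e-14). *Itgb8*, an integrin that activates TGF-beta, was at 3.24, 1.07 and 1.82 against 280.3, 353 and 404, and *Cd200*, the ligand of an inhibitory myeloid receptor, at 74.5, 68.2 and 103 against 1094, 1343 and 1421. *Vsir* (VISTA), an inhibitory ligand that LPS lowers, kept 5848, 5520.4 and 5529 against 2253, 2497 and 2961 in LPS and 8449.6, 8310 and 8264 in nonconfined KO (1.13, adjusted p 3.09e-12), or 0.93 against LPS_WT replicate 2 with LPS_KO replicate 1.

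Cytokine genes show the largest deficit of the 22 lists. Of 18, 16 were called lower than LPS and 0 higher, beside 12.9% and 10.7% of all genes. Their median was -5.67 (-5.72 with *Il33*, at 0 in all confined KO libraries, set to a floor of 3 reads over the group). *Il12b*, the shared subunit of IL-12 and IL-23, was at 223, 248 and 252 in nonconfined KO, 391, 377 and 299 in confined KO and 163396, 186604 and 228621 in LPS. Confined KO cells lie just above the starting level (0.55, adjusted p 0.00021) and at 0.186% of LPS (-9.07, 95% CI -9.26 to -8.88, adjusted p 9.95e-26). *Il23a*, the other subunit of IL-23, was at 20.5, 5.33 and 9.11 against 1993, 2352 and 2456 (nonconfined KO minus WT -1.22), and *Il6* at 296, 307 and 267 against 37537, 39775 and 44736 with 133, 104 and 118 in nonconfined KO. *Il6* was thus called higher than the starting level (1.29, adjusted p 5.24e-11) at 0.715% of LPS. *Tnf* stood at 7690.2, 7084 and 7382, 2.58% of LPS.

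Against nonconfined KO, 9 of these cytokine genes were called higher and 0 lower, beside 6.43% and 5.53% of all genes. The interleukin 1 genes moved far. *Il1b* went from 315, 259.7 and 337 in nonconfined KO to 4571, 4393 and 4739 in confined KO (3.91, 95% CI 3.76 to 4.06, adjusted p 6.94e-20), against 235313, 249464 and 259130.3 in LPS (-5.76, 95% CI -5.89 to -5.63, adjusted p 2.72e-25). *Il1a* went from 412, 374 and 345 to 4585, 4168 and 4708 (3.57, adjusted p 9.45e-19), against 343042, 397610.2 and 433263 in LPS. The 3 groups are apart for both genes, with confined KO at 1.85% and 1.15% of LPS. *Csf3*, which drives neutrophil production, was at 3.13, 0 and 0 in nonconfined KO, 147, 162 and 178 in confined KO and 7455, 8941 and 10247 in LPS. *Osm*, a cytokine of the IL-6 family, came closest of the list, at 60.5% of LPS (-0.72, adjusted p 4.66e-09, not called) and 1.02 (adjusted p 5.95e-10) from nonconfined KO.

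Chemokines stood mostly below LPS. Of 19, 17 were called lower than LPS and 0 higher (median -4.22), beside 12.9% and 10.7% of all genes. Against nonconfined KO 6 were called higher and 3 lower, beside 6.43% and 5.53% of all genes. The neutrophil attractants read by CXCR2 rise part of the way. *Cxcl1* was at 11.8, 9.31 and 16.5 in nonconfined KO, 220.1, 239.9 and 223 in confined KO and 23477, 27084 and 30836 in LPS (-6.89, 95% CI -7.29 to -6.49, adjusted p 4.1e-18). *Cxcl2* reached 2407, 2594 and 2507 from 118, 109.8 and 126 (4.40, adjusted p 1.14e-15), with 70749, 92253 and 114072 in LPS, and *Cxcl3* reached 7647, 7494 and 7648 from 311, 257 and 277 (4.75, adjusted p 9.45e-19), with 121808, 142735 and 163815 in LPS. All 3 are above every nonconfined KO library and at 0.838%, 2.71% and 5.33% of LPS.

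*Ppbp*, another CXCR2 ligand, which is on the megakaryocyte list, passed the LPS level: 172, 195 and 134 in nonconfined KO, 5555, 5446 and 5892 in confined KO and 1611, 2921 and 4033 in LPS (1.09, adjusted p 0.000238). The call is lost without LPS_WT replicate 2 (0.92) or LPS_KO replicate 1 (0.90), the lowest LPS pair. The attractants of T cells named here stood far below LPS, and in all 17 of 19 chemokines were called lower. *Cxcl10* and *Cxcl9*, ligands of CXCR3, stood at 864, 899 and 841 against 59287, 69055 and 77050.4 (-6.29, 95% CI -6.43 to -6.15, adjusted p 2.04e-25) and at 10.8, 6.4 and 10.9 against 613, 659 and 717 (-6.02, adjusted p 5.81e-15). The CCR4 ligands *Ccl22* and *Ccl17* were at 3% and 8.19% of LPS, and *Ccl5* at 2.31%. *Ccl5* and *Ccl22* were below the starting level, with -1.98 (adjusted p 7.12e-17) and -1.17 (adjusted p 6.11e-15) against nonconfined KO. *Ccl6*, abundant in myeloid cells, lay above LPS, 248283, 251851 and 247924 against 137436, 148499 and 155872, with 0.76 (adjusted p 1.24e-12) under the fold threshold (1.20 and called with library totals made equal).

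Antigen presentation by MHC class II differs less. *H2-Ab1* was at 113669, 105060 and 115984 in nonconfined KO, 73500.3, 74283 and 75588 in confined KO and 93508, 109035 and 124202 in LPS (-0.54, 95% CI -0.68 to -0.39, adjusted p 5.78e-07). *Cd74*, the invariant chain, was at 284485, 266470.4 and 271538 in nonconfined KO, 204144, 189379 and 201148 in confined KO and 293489, 316721 and 335999.6 in LPS (-0.67, 95% CI -0.77 to -0.57, adjusted p 6.37e-11). At the main scaling confined KO is the lowest of the 3 groups for both genes, under the fold threshold. Making library totals equal moves the median of all genes by 0.44, a large part of both differences from LPS. *Ciita*, the transactivator of the class II genes, was 4860, 4279 and 4421 in confined KO against 8091, 10235 and 9079 in nonconfined KO and 11455, 11994 and 13909 in LPS (-1.43, adjusted p 1.31e-14; -0.99 with library totals made equal), and *Rfx5*, a factor bound to class II promoters, 213, 198 and 198 against 509.5, 543 and 626 in LPS (-1.45, adjusted p 7.82e-12). Of 16 class II genes, 2 were called lower than LPS and 0 higher, near the share over all genes, with a median of -0.40, or 1 higher and 1 lower (median 0.04) with library totals made equal. Against nonconfined KO 5 were called lower and 0 higher, beside 5.53% and 6.43% of all genes.

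The class I pathway, which loads peptides for CD8 T cells and is raised by interferon, stayed behind LPS in 16 of 20 genes tested. With 0 higher, the median was -1.52. Of all genes 12.9% were called lower and 10.7% higher. With library totals made equal, 12 of the 20 were lower and 0 higher (median -1.07). *H2-Q7* was at 331, 339 and 318 against 3016, 3235 and 3713 in LPS (-3.30, adjusted p 1.93e-20), *Nlrc5*, the transactivator of class I genes, at 545, 652 and 577 against 4695, 5310.5 and 5526 (-3.15, adjusted p 4.44e-20), and *Tap1*, which carries peptides into the endoplasmic reticulum, at 4115, 3715 and 4184 against 18721, 19634 and 19816 (-2.28, adjusted p 7.75e-22). Confined KO lies below every LPS library for all 3, and below every nonconfined KO library for *Nlrc5* and *Tap1* (885, 1112 and 894 and 6260.4, 6251 and 6475). Against nonconfined KO 1 of the list was called lower and 0 higher, near the 5.53% and 6.43% of all genes.

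Interferon-stimulated genes are lacking throughout the list. All 42 of 42 were called lower than LPS (median -3.84), beside 12.9% of all genes. Of the 42, 28 were called lower than nonconfined KO, with 0 higher (median -1.19), beside 5.53% and 6.43% of all genes. LPS raised 42 of 42, beside 15.6% of all genes. *Isg15*, a ubiquitin-like modifier, stood at 2438, 2242 and 2388 in nonconfined KO, 1059.6, 1098 and 1055 in confined KO and 40514, 41840.3 and 43702 in LPS. Confined KO is lowest in each library, -5.29 (95% CI -5.37 to -5.21, adjusted p 1.07e-27) from LPS and -1.14 (95% CI -1.23 to -1.04, adjusted p 1.45e-14) from nonconfined KO. *Gbp5*, a GTPase acting against microbes in the cytosol, was at 1248, 1415 and 1469 in nonconfined KO, 611, 493 and 561 in confined KO and 29718, 30897 and 31910.3 in LPS (-5.80, adjusted p 3.19e-26). *Ifi44* was at 176, 158 and 143 in nonconfined KO, 57.2, 58.6 and 49.2 in confined KO and 2034, 2885 and 3923 in LPS (-5.67, adjusted p 4.99e-18), and it also differs between nonconfined KO and WT (-1.26).

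*Rsad2* (viperin), which makes an antiviral nucleotide, did not fall below the start: 414, 416 and 439 in nonconfined KO, 438, 472 and 444 in confined KO and 18168, 19732 and 21869 in LPS (-5.45, 95% CI -5.56 to -5.35, adjusted p 1.15e-26; 0.09, adjusted p 0.182 from nonconfined KO). *Ifit1*, which binds foreign RNA caps, was at 2464, 2111 and 2133 in nonconfined KO, 972, 912 and 812 in confined KO and 34870, 39158 and 43878 in LPS (-5.44, adjusted p 3.68e-24). *Ifnb1*, the interferon beta gene, was at 11.9, 6.4 and 6.38 in confined KO and 134, 145 and 167 in LPS. Median levels of the list in confined KO were 6.96% of LPS, with 29 of 42 members under 10%.

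The promoters of these genes often hold letters that factors of the interferon response bind. In RefSeq promoters (GRCm38.p6, 250 bases before to 50 after each start, both strands), GAAANNGAA, the core of the interferon-stimulated response element, occurs in 21 of 40 promoters (52.5%) of the 32 interferon-stimulated genes matched by symbol, of 42 listed. Over all 32851 promoters the share is 8.56%. The kB-like GGANNTTCC occurs in 6 of 40 (15%) of these and in 5 of 26 (19.2%) of the NF-kB list (19 of 23 genes matched), against 4.26% of all promoters, and 4 promoters of the interferon list hold both. A match is a description of letters, not a bound site. In the 130 bases before the start, *Gbp5*, *Ifi44* and *Cxcl10*, also named above, hold 0 matches to the interferon core. The 130 bases before the start of 3 genes named above are shown because these genes have a match there, with the matched core in capitals on either strand (overlapping matches run together):
*Isg15*, chr4:156200819-156200948, minus strand: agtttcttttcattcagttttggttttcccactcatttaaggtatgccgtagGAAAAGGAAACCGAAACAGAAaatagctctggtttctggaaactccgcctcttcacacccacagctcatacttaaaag
*Ifit1*, chr19:34640759-34640888, plus strand: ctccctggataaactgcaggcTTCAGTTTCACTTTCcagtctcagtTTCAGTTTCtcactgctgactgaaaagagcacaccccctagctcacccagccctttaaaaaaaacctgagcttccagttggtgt
*Rsad2*, chr12:26456453-26456582, minus strand: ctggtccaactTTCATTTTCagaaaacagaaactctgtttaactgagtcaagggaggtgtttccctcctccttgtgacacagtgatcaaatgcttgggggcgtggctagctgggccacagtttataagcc

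The NF-kB machinery itself, whose inhibitors are made again as the pathway runs, stood mostly below LPS. Of 23 subunits, inhibitors and adaptors, 17 were called lower than LPS and 0 higher (median -1.96), beside 12.9% and 10.7% of all genes. Against nonconfined KO 4 were called higher and 0 lower (median 0.47, all genes 0.01), beside 6.43% and 5.53% of all genes. LPS raised 21, beside 15.6% of all genes. *Nfkbiz*, a nuclear co-activator of *Il6* and *Il12b*, was at 258, 303 and 307 in nonconfined KO, 1000.3, 1025 and 969.6 in confined KO and 17779.7, 18767 and 19885 in LPS (-4.23, 95% CI -4.35 to -4.11, adjusted p 1.36e-23; 1.79, adjusted p 7.56e-15 from nonconfined KO). *Tnfaip3* (A20), which removes ubiquitin from the pathway, was at 1149, 1346 and 1286 in nonconfined KO, 2447, 2492 and 2639 in confined KO and 34165, 37496 and 40455 in LPS (-3.88, adjusted p 3.6e-23; 1.01, adjusted p 4.49e-11 from nonconfined KO). Both sit above the start and at 5.31% and 6.76% of LPS. *Ikbke*, a kinase of the interferon arm, was at 1931, 1916 and 1957, below nonconfined KO (2071, 2168 and 2246) and LPS (16185, 17499 and 19409).

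Of 21 Toll-like receptor genes and adaptors, 3 were called higher than LPS and 7 lower (median -0.48), beside 10.7% higher and 12.9% lower over all genes, or 4 higher and 4 lower (median -0.04) with library totals made equal. *Tlr4*, the LPS receptor, was highest in confined KO, at 10504, 10076 and 10271 against 6027, 6149 and 6103 in nonconfined KO and 4324, 4369 and 4576 in LPS (1.22, 95% CI 1.15 to 1.29, adjusted p 3.9e-18). The 3 groups are apart. *Tlr5*, the flagellin receptor, was at 95, 156 and 123 against 9.87, 27.8 and 32 (2.34, adjusted p 8.92e-08), and *Tlr8*, which senses RNA, at 1314, 1279 and 1286 against 381, 461 and 524 (1.51, adjusted p 1.47e-13). In the other direction, *Tlr3*, the receptor for double-stranded RNA, was at 92.8, 55.4 and 72 against 581, 659 and 719 (-3.17, adjusted p 1.48e-15), *Tlr1* at 304, 333 and 305 against 1951, 2547 and 3036 (-2.96, adjusted p 1.18e-16) and the inhibitory kinase homologue *Irak3* at 1253, 1213 and 1214 against 5607, 5795 and 6060.3 (-2.24, adjusted p 1.44e-18).

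Among 8 inflammatory chemokine receptors, 1 was called higher than LPS, *Cxcr2*, with 929, 778 and 916 against 298, 327 and 351 (1.41, adjusted p 2.7e-13), and 3 lower (median -0.15), beside 10.7% higher and 12.9% lower over all genes, or 3 higher and 3 lower (median 0.29) with library totals made equal. *Ccrl2*, a receptor that binds chemerin without signalling, was at 1064, 928 and 979 against 14488, 17689.5 and 20248 (-4.13, adjusted p 2.26e-20), and *Cx3cr1*, the fractalkine receptor, at 4.32, 6.4 and 3.65 against 56.5, 110.5 and 179 (-4.22, adjusted p 1.53e-09). *Ccr4* was at 279, 254 and 257 against 1101, 1781 and 2450.3 (-2.68, adjusted p 2.56e-10); its LPS values follow the library pairs (1193, 2450.3 and 1760.1 in LPS_WT, 2339, 1101 and 1801 in LPS_KO), and nonconfined KO differs from WT by -1.34. Confined KO lies below all LPS libraries for these 3 genes.

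The survival genes furthest below LPS are given first. *Bcl2a1d* and *Bcl2a1b*, anti-apoptotic genes, stood at 8288, 8914 and 9026 against 41725, 42741 and 44353 (-2.30, adjusted p 1.76e-21) and 12809, 13697 and 13880.1 against 60832, 62336 and 62841 (-2.21, adjusted p 1.98e-21). *Cflar*, an inhibitor of caspase 8, was at 783, 680.3 and 750 against 4894, 5385 and 5884 (-2.87, adjusted p 1.53e-18). *Bcl2*, which LPS lowers, stood between: 2603, 2841 and 2634 in nonconfined KO, 1955, 1765 and 2014 in confined KO and 399, 414 and 451 in LPS (2.18, 95% CI 2.06 to 2.29, adjusted p 5.6e-19). In all, 6 of 14 were called lower than LPS, 1 higher and 7 not called (median -0.60), beside 10.7% higher and 12.9% lower over all genes. With library totals made equal, 3 were higher and 6 lower (median -0.16).

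The microbicidal metabolism of matured DCs begins but does not arrive. *Nos2*, which makes nitric oxide, was at 21.9, 11.2 and 22.3 in nonconfined KO, 77.7, 78.9 and 72 in confined KO and 24107, 33053 and 42583 in LPS (-8.73, 95% CI -9.13 to -8.34, adjusted p 5.59e-20; 2.05, adjusted p 1.42e-07 from nonconfined KO). *Acod1*, which makes itaconate, was at 3009.5, 3153 and 3163 in nonconfined KO, 9227, 8540.3 and 9221 in confined KO and 198646, 216331 and 236264 in LPS (-4.59, adjusted p 3.73e-25; 1.53, adjusted p 1.09e-14), and *Slc7a2*, an arginine carrier, at 285, 366 and 375 in nonconfined KO, 1843, 1852 and 1834 in confined KO and 25521, 26874 and 30433 in LPS (-3.89, adjusted p 4e-21; 2.44, adjusted p 2.25e-15). All 3 rose above every nonconfined KO library and hold 0.227%, 4.14% and 6.75% of LPS. Of 10 genes, 6 were called lower than LPS and 0 higher, beside 12.9% and 10.7% of all genes. Against nonconfined KO 6 were called higher and 0 lower, beside 6.43% and 5.53%.

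Other members of this list come near or pass the LPS level. *Slc7a11*, the cystine carrier, went from 5777, 6441 and 5745 in nonconfined KO to 49123, 52342 and 50816 in confined KO (3.08, 95% CI 2.81 to 3.36, adjusted p 5.56e-14), with 64619, 85419 and 111201 in LPS. It is below each LPS library yet at 60.2% of their mean (-0.70, adjusted p 1.36e-05, not called; -1.01 and called against LPS_WT replicate 1 with LPS_KO replicate 2). *Odc1*, the first enzyme of polyamine synthesis, was at 8775, 8334 and 9206 against 5286, 6041 and 6985 (0.54, adjusted p 4.26e-07, under the fold threshold).

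Genes of glycolysis, which matured DCs turn up, and of the hypoxia response share a list. Of its 21 genes, 13 were called lower than LPS and 0 higher (median -1.19), beside 12.9% and 10.7% of all genes. Against nonconfined KO 3 were higher and 0 lower by the same rule, beside 6.43% and 5.53% of all genes. With library totals made equal, 9 of the 21 were lower than LPS and 0 higher (median -0.75). *Pfkl*, a phosphofructokinase subunit, was at 3984, 3741 and 4068 in confined KO, 4126, 3806 and 4260.5 in nonconfined KO, and in LPS at 18932, 22681 and 28228 (-2.55, adjusted p 1.15e-16). *Bnip3*, a mitophagy receptor raised by low oxygen, was at 1509.6, 1608 and 1429 against 7038, 10049.5 and 13191 (-2.69, adjusted p 7.83e-13), and *Egln3*, an oxygen-sensing hydroxylase, at 2333, 2149.7 and 2135 against 8956, 12055 and 16266 (-2.44, adjusted p 1.68e-12) with 856, 758 and 854 in nonconfined KO.

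Of 22 genes of sterol and fatty acid synthesis, 1 was called higher than LPS, 2 lower and 19 not called (median -0.27), beside 10.7% higher and 12.9% lower over all genes, or 1 higher and 0 lower (median 0.18) with library totals made equal. *Dhcr7*, the last enzyme of cholesterol synthesis, was higher, 726, 711 and 728 against 226, 254 and 299 (1.5, adjusted p 4.78e-13), near the 657, 724 and 729.8 of nonconfined KO. The desaturases *Scd1* (-1.11, adjusted p 3.44e-06) and *Scd2* (-1.23, adjusted p 9.87e-07) were lower, but their LPS values follow the library pairs and nonconfined KO minus WT was -1.86 and -1.10. Against LPS_WT replicate 1 with LPS_KO replicate 2 neither was called (-0.77 and -0.75), nor with library totals made equal (-0.67 and -0.78), and *Scd1* was also not called without confined KO replicate 3 (-0.98) or LPS_KO replicate 1 (-0.98).

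Uptake receptors serve the sampling done by immature DCs. LPS against nonconfined cells raised 5 of the 24 tested and lowered 2 (median 0.10), beside 15.6% and 13.4% of all genes. Of 24, 3 were called higher than LPS, 6 lower and 15 not called (median 0.09), beside 10.7% higher and 12.9% lower over all genes, or 8 higher and 5 lower (median 0.53) with library totals made equal. *Clec7a* (dectin 1), which binds fungal glucans, rose from 2742, 2708 and 2563 in nonconfined KO to 9767, 9825 and 10037 in confined KO (1.89, 95% CI 1.80 to 1.97, adjusted p 9.45e-19), while LPS libraries held 2993, 3085 and 3238 (1.67, 95% CI 1.59 to 1.74, adjusted p 3.51e-20). It is higher in each confined KO library than in any nonconfined KO or LPS library. *Mrc1*, the mannose receptor, was at 5847, 6418 and 6152 in nonconfined KO, 6484, 6278 and 6721 in confined KO and 2368, 3310.2 and 4049 in LPS (1.04, adjusted p 1.38e-07), with the call lost without LPS_WT replicate 2 (0.94) or LPS_KO replicate 1 (0.95). *Cd209a* (DC-SIGN family) fell from 170, 181 and 188 to 37.8, 45.9 and 21 (-2.40, adjusted p 2.62e-06), still above 6.17, 10.2 and 15.9 in LPS (1.66, adjusted p 2.17e-05).

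*Cd14*, which hands LPS to TLR4, rose from 1989, 1857 and 2102 to 16689, 16089.9 and 16508 (3.05, adjusted p 3.62e-19) and reached 19.1% of LPS (77902, 84568 and 96073, -2.38, adjusted p 8.71e-20). *Marco*, a scavenger receptor, was at 705, 686 and 776 in nonconfined KO, 1463, 1400.1 and 1361 in confined KO and 9157, 10163 and 11519 in LPS (-2.87, adjusted p 4.26e-19; nonconfined KO is above WT by 2.21). *Clec4a1* fell from 1248, 1306 and 1112 to 515, 456 and 429 (-1.39, adjusted p 1.11e-11), where LPS held 3138, 3533 and 3593 (-2.89, adjusted p 3.78e-19). *Cd36*, a receptor for oxidised lipids, rose from 1906, 1877 and 1765 to 5122, 4725 and 4791 (1.40, adjusted p 1.21e-15), 75.3% of LPS (-0.41, adjusted p 1.26e-08, or 0.03 with library totals made equal).

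Lysosomal genes were called higher at about the share of all genes. Of 29, 3 were called higher, 0 lower and 26 not called (median 0.20), beside 10.7% higher and 12.9% lower over all genes. With library totals made equal, 8 were higher and 0 lower (median 0.64, all genes 0.46), beside 4021 and 1580 of all 17875 genes. Against nonconfined KO 3 were called higher and 0 lower, beside 6.43% and 5.53% of all genes. *Atp6v0d2*, a proton pump subunit, was at 3382, 3257 and 3306 in nonconfined KO, 7191, 7183 and 7439.9 in confined KO and 1696, 1777 and 1987 in LPS (2.00, 95% CI 1.91 to 2.10, adjusted p 1.39e-19; 1.13, adjusted p 3.12e-13 from nonconfined KO). *Tfeb*, the factor that drives lysosome genes, was at 2478, 2186 and 2326 in nonconfined KO, 2779, 2667 and 2511 in confined KO and 809, 878 and 967 in LPS (1.58, adjusted p 4.96e-15), and *Npc1*, which exports cholesterol from lysosomes, at 11835, 12500 and 12186 in nonconfined KO, 20969.9, 19464 and 20875 in confined KO and 7639, 8702 and 10007 in LPS (1.23, adjusted p 8.27e-14). For all 3 each confined KO library exceeds each LPS library.

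The prostaglandin pathway lies downstream of cPLA2. *Ptgs2* (cyclooxygenase 2) rose from 70.5, 77.3 and 95.1 in nonconfined KO to 2387, 2179.6 and 2199.9 in confined KO (4.79, 95% CI 4.64 to 4.94, adjusted p 2.04e-21), with 71446, 73885 and 75469 in LPS (-5.03, 95% CI -5.16 to -4.90, adjusted p 2.7e-24). *Ptges*, which makes prostaglandin E2 from its product, was at 145, 132 and 144 in nonconfined KO, 472, 432 and 440.2 in confined KO and 5493, 7552 and 8887 in LPS (-4.01, adjusted p 8.59e-18; 1.67, adjusted p 1.74e-09 from nonconfined KO). Both are above the start in each library and at 3.06% and 6.09% of LPS. *Ptgs1* (cyclooxygenase 1), which LPS lowers, was at 11764, 12234 and 12678 in nonconfined KO, 6415, 6007 and 6465 in confined KO and 1515, 1608 and 1666 in LPS (1.97, adjusted p 3.77e-20), and *Tbxas1*, the thromboxane synthase, at 2097, 2218 and 2094 in nonconfined KO, 2801, 2610.4 and 2743 in confined KO and 1146, 1206 and 1359 in LPS (1.14, adjusted p 1.37e-13).

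The receptors for prostaglandin E2 differ among themselves. *Ptger2* was at 484, 525 and 467 in nonconfined KO, 1874, 1994 and 1863 in confined KO and 1164, 1306 and 1393 in LPS. Confined KO exceeds both, by 1.96 (95% CI 1.79 to 2.12, adjusted p 1.99e-14) over nonconfined KO and 0.56 (95% CI 0.42 to 0.70, adjusted p 2.57e-07) over LPS, the latter under the fold threshold (1.0035 and called with library totals made equal). *Ptger4*, the other receptor that raises cyclic AMP, was at 643, 779 and 639 in nonconfined KO, 539.5, 539.6 and 539 in confined KO and 2732, 2847 and 2938 in LPS (-2.39, adjusted p 2.9e-18). *Ptger3*, which lowers cyclic AMP, was at 114, 116 and 138 in nonconfined KO, 62.6, 43.7 and 52.9 in confined KO and 9.87, 15.4 and 20.2 in LPS (1.79, adjusted p 1.82e-07). Of 19 genes of the pathway, 3 were called higher than LPS and 3 lower (median 0.18), beside 10.7% and 12.9% of all genes. With library totals made equal, 9 were higher and 3 lower (median 0.62), beside 4021 and 1580 of all 17875 genes. Against nonconfined KO 4 were called higher and 4 lower, beside 6.43% and 5.53% of all genes.

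Of 25 immediate early factors, 3 were called higher and 11 lower than LPS (median -0.82), beside 10.7% higher and 12.9% lower over all genes. With library totals made equal, 4 were higher and 9 lower (median -0.38), beside 4021 and 1580 of all 17875 genes. Against nonconfined KO 9 were called higher and 2 lower, beside 6.43% and 5.53% of all genes. *Fosb* was at 132, 113 and 109.7 in nonconfined KO, 1009, 964 and 940.5 in confined KO and 180.3, 218 and 288 in LPS (2.14, 95% CI 1.90 to 2.38, adjusted p 6.12e-13). *Fos* was at 1218, 1206 and 1172 in nonconfined KO, 2558, 2278 and 2387 in confined KO and 661, 731 and 896 in LPS (1.67, adjusted p 1.87e-14), and *Klf4*, a myeloid differentiation factor, at 865, 784 and 797 in nonconfined KO, 1292, 1145 and 1171 in confined KO and 207, 234 and 264 in LPS (2.36, adjusted p 3.76e-16). These 3 are highest in confined KO. *Fosl1* was at 43.9, 34.4 and 38.8 in nonconfined KO, 201, 196 and 170.4 in confined KO and 719, 781 and 902 in LPS (-2.06, adjusted p 1.6e-10), *Dusp2*, a phosphatase of MAP kinases, at 65, 66.1 and 74.7 in nonconfined KO, 145, 126 and 159 in confined KO and 2605, 2734 and 3039.8 in LPS (-4.28, adjusted p 4.15e-21), and *Nr4a3* at 859, 965 and 929 in nonconfined KO, 1508, 1517 and 1523 in confined KO and 7524, 7957 and 8430.1 in LPS (-2.40, adjusted p 2.41e-21), all 3 between the start and LPS. Since confined cells were collected hours and LPS cells a day after the stimulus, time cannot be told apart from treatment for such short-lived messages.

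Some stress genes reach the LPS level or pass it. *Hmox1*, which degrades haem, rose from 4104, 3808 and 3929.5 in nonconfined KO to 103018, 95059 and 100385 in confined KO (4.66, 95% CI 4.40 to 4.91, adjusted p 3.3e-17). LPS libraries held 39652, 52957 and 63239.9, each below each confined KO library (0.96, adjusted p 7.46e-08, just under the fold threshold, and past it with library totals made equal, 1.40, or without LPS_WT replicate 1, 1.03, or LPS_KO replicate 2, 1.03). *Chac1*, which breaks down glutathione in amino acid stress, was at 81.5, 119 and 105 in nonconfined KO, 587, 521 and 502 in confined KO and 106, 141 and 161 in LPS (1.96, 95% CI 1.68 to 2.24, adjusted p 2.48e-11). *Trib3*, of the same response, was at 136, 125 and 145 in nonconfined KO, 539.5, 553 and 517 in confined KO and 219.7, 264 and 334 in LPS (1.00, adjusted p 5.14e-08). Its call stands at the threshold and is lost without confined KO replicate 1 (1.00, just under it) or 2 (0.98), LPS_WT replicate 1 (0.92) or LPS_KO replicate 2 (0.96).

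The 3 members of the stress list furthest below LPS are chaperones or a co-chaperone. *Hspa1a* was at 177, 168 and 171 in nonconfined KO, 642, 609 and 595 in confined KO and 2151, 2713 and 2869 in LPS (-2.07, adjusted p 7.56e-15; 1.83, adjusted p 4.24e-12 from nonconfined KO), *Hspa1b* at 314, 249 and 244 in nonconfined KO, 762, 637 and 603 in confined KO and 3391, 3559.7 and 3729 in LPS (-2.42, adjusted p 3.33e-17), and *Dnaja1*, a co-chaperone, at 1157, 1031 and 1083 in nonconfined KO, 689.5, 772 and 807 in confined KO and 1639, 1914 and 2248 in LPS (-1.37, adjusted p 7.5e-12; -0.92 with library totals made equal). *Dnaja1* thus lies below both the start and LPS, and the other 2 lie between. Of 25 genes of the stress list, 2 were called higher than LPS and 6 lower (median -0.38), beside 10.7% higher and 12.9% lower over all genes. With library totals made equal, 4 were higher and 2 lower (median 0.06), beside 4021 and 1580 of all 17875 genes. Against nonconfined KO 7 were called higher and 0 lower, beside 6.43% and 5.53% of all genes.

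**Figure D4:**
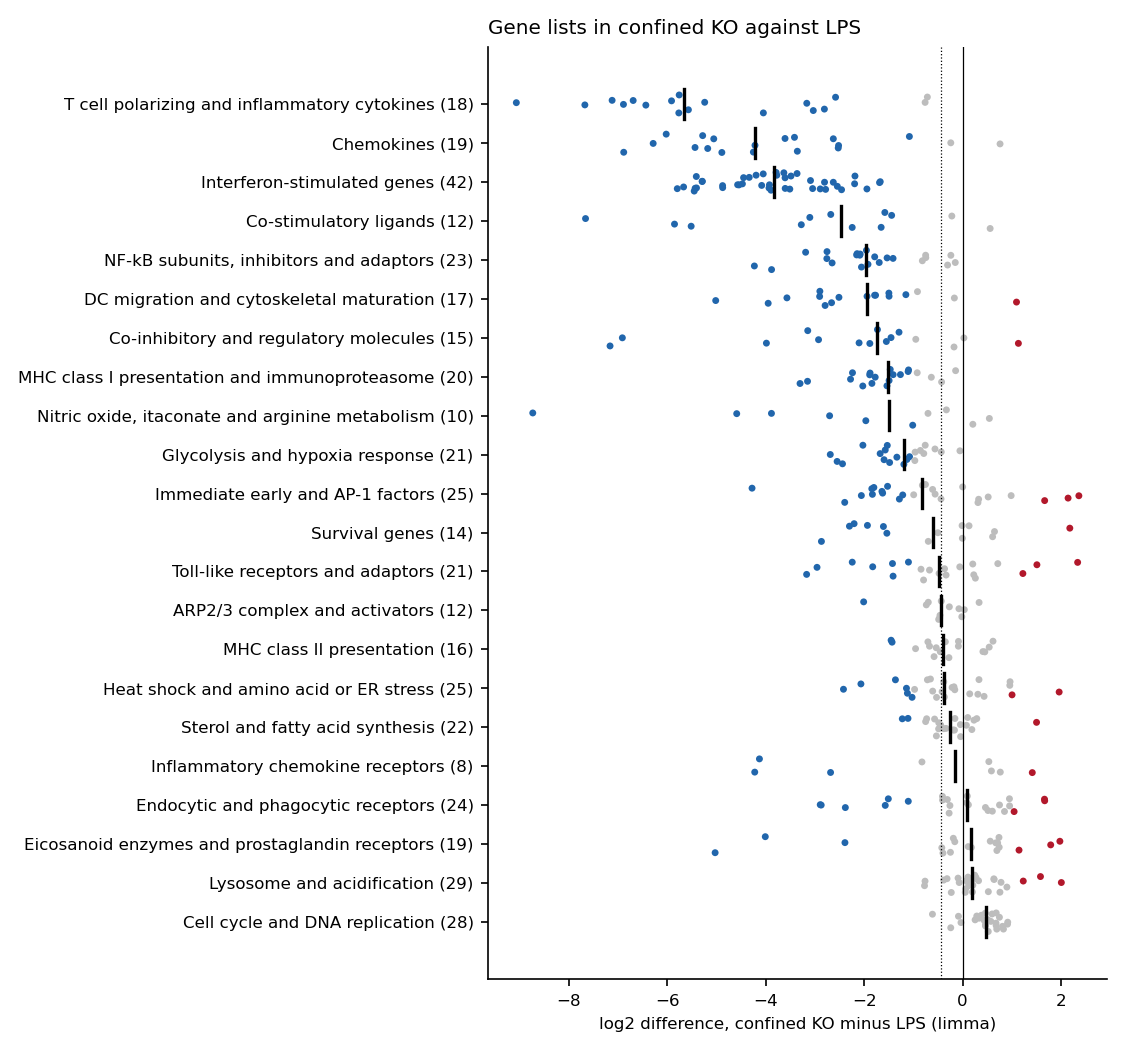
Log2 difference of each tested member, confined KO minus LPS, for 22 gene lists ordered by median (black bars; number of members tested in brackets); red and blue points were called higher and lower, grey points were not called. The solid line marks 0 and the dotted line where 0 would lie with library totals made equal; cytokines lie lowest (median -5.67) and lysosome and cell cycle genes highest (medians 0.20 and 0.47).

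Outside the lists, the 10 largest deficits and excesses are named. They were chosen among called genes averaging 100 or more normalized counts in the higher group, without overlap between the groups. *Shisa3* was at 0 in all confined KO libraries and at 503, 622 and 677 in LPS, at least 599-fold lower against a floor of 3 reads over the 3 libraries. *Scube3* was also at 0, with 173, 224 and 283 in LPS (at least 219-fold lower) and 6.27, 9.31 and 13.6 in nonconfined KO, which is above WT by 1.30. *U90926* was at 4.32, 2.13 and 7.29 against 2233, 2347 and 2659 (-8.84, adjusted p 1.05e-16). *Mucl1* had 2 reads in confined KO in all and 103, 143 and 172 normalized counts in LPS, a ratio of 197 with a 95% counting interval of 57.9 to 1730. These 4 genes are at or near 0 in confined KO and well read in each LPS library.

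Among the other 6, *Slc1a2*, a glutamate carrier, was at 6.47, 6.4 and 3.65 against 1049.9, 1105 and 1176 (-7.44, adjusted p 2.4e-11). *Lox*, which cross-links collagen, was at 14, 6.4 and 18.2 against 1417, 1709.7 and 1958 (-7.03, adjusted p 4.02e-10), and *Plat*, the tissue plasminogen activator, at 2.16, 23.5 and 9.11 against 739, 1010.2 and 1264 (-6.77, adjusted p 9.54e-13). *Ccl1*, the ligand of CCR8, was at 30.2, 27.7 and 55.6 against 2545, 3414 and 3891 (-6.44, adjusted p 5.11e-17), and it was higher than in nonconfined KO (4.7, 7.45 and 7.76; 2.30, adjusted p 7.85e-08). *Calhm6*, at 10.8, 4.27 and 5.47 against 712, 861 and 933, fell from 47, 39.1 and 44.6 in nonconfined KO (-2.59, adjusted p 6.76e-09). *Tmem200b* was at 0, 6.4 and 0 against 406, 458 and 514 (-7.88, adjusted p 1.9e-12). These 6 do not overlap with LPS, as the choice of genes required.

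On the higher side, *Acot1*, an acyl-CoA thioesterase, was at 588, 626 and 589 against 0, 37.1 and 54.9 (5.42, adjusted p 5.44e-05), but nonconfined KO differs from WT by 7.62, where genotype, sex and donor cannot be told apart. *Thbd* (thrombomodulin) was at 721, 599 and 673 against 14.5, 17.2 and 22.9 (5.13, 95% CI 4.83 to 5.44, adjusted p 5.1e-18), with 453, 435 and 515 in nonconfined KO, above WT by 1.08. *Sla2*, an adaptor that dampens receptor signals, was at 114, 119 and 127 against 1.23, 3.9 and 13.7 (4.37, adjusted p 8.18e-09), and *Angptl2* at 3071, 2560.3 and 2819 against 143, 175 and 251 (3.92, adjusted p 1.59e-17). LPS lowers *Thbd*, *Sla2* and *Angptl2*, with -4.09, -4.64 and -3.61 against nonconfined cells of both genotypes. *Wwc1* (KIBRA), a regulator of the Hippo pathway, stands apart, since it rose under confinement from 0, 1.86 and 0 to 115, 122 and 82.9, with 2.12, 6.5 and 11.4 in LPS (3.91, adjusted p 7.76e-07).

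The other 5 genes of these 10 were lowered by LPS. *Cracr2b*, a regulator of calcium entry, was 3.59 from LPS, *Ankrd63* 3.57, the locus *Entpd4 // Entpd4b* 3.57, *Rab15*, a GTPase of endosomes, 3.54, and *Mettl7a1* 3.48. LPS against nonconfined cells lowered *Cracr2b* (-4.12), *Ankrd63* (-3.68), *Entpd4 // Entpd4b* (-3.46), *Rab15* (-2.34) and *Mettl7a1* (-2.93). Confined against nonconfined KO differences of these 5 genes ran from -0.63 for *Cracr2b* to 0.79 for *Rab15*, under the fold threshold.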

How the data were processed

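RNA was measured in 18 libraries of mouse DCs in 6 labelled groups of 3. In the deposited table the signal of each gene is a value the authors made by mapping reads with STAR 2.7.5a to mm39 and dividing featureCounts counts by DESeq2 size factors; multiplied back, 100.0% of values are whole within 1e-06, which recovers the reads. Counting error is small at 33027230 to 61300021 reads a library. Log2(normalized count + 1) values were fitted with limma 3.58.1 (trend) in R 4.3.3, group means, all 18 libraries, Benjamini-Hochberg over 17875 genes. Alternatives used edgeR 4.0.16, DESeq2 1.42.0, other pseudocounts (0.5, 5), filters and scalings, single LPS labels, a replicate block, the Methods' thresholds (fold change 1.5, P 0.05) and each library left out; the LPS pairs were added after seeing the data. Replicate numbers do not pair libraries across groups. Members, gene lists and tests were chosen with earlier results of these data known. Named are *Pla2g4a*, *Ccr7*, 15 maturation genes, most list members (first the 3 called most in each direction) and, outside lists, the 10 largest called differences each way. The pipeline was tested on simulated data. Confined WT libraries entered the fit and the check of labels only, and loci without a symbol were counted but not named.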

Additional observations from a re-analysis of the deposited data

Results flagged for a closer look

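In the 6 LPS libraries, 3 of 151 named genes have 1 library far from the other 5 (a large gap to the nearest against the whole range). *Cd70* was 1082 in LPS_KO replicate 1 (gap over range 0.757), *Clec4a1* 3138 in LPS_WT replicate 1 (0.732) and *U90926* 2659 in LPS_KO replicate 3 (0.725). Chance flags about 1 in 20 groups, and here 1.99% were. The 3 confined KO libraries are too few for this.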

How the results depend on the processing

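For 151 named genes and 26 alternatives, 3851 of 3920 values kept their direction and call, 52 lost the call, 15 gained one and 2 changed direction; none of the reversed genes was called. *Pla2g4a* became 0.28 with library totals made equal and *Cd36* 0.034. The causes were not tested.

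A filter of 100 normalized counts, which tests fewer genes, gave 904 higher and 1512 lower than LPS, and 531 and 556 against nonconfined KO. The Methods' thresholds, which are wider, gave 3518 higher and 3452 lower than LPS, and 2254 higher and 1973 lower than nonconfined KO. Making library totals equal gave 4021 higher and 1580 lower than LPS. In both, higher exceeds lower, the reverse of the main counts (1914 and 2313). Of genes lowered by LPS, 18 were called higher in confined than in nonconfined KO when chosen with LPS_WT and 32 when chosen with LPS_KO. Leaving out 1 library gave 1672 to 1936 higher and 2206 to 2321 lower than LPS, and 934 to 1279 higher and 895 to 974 lower than nonconfined KO. A replicate block gave 1913 and 2310, and 1150 and 978. Of 1612 list counts under alternatives, 91 moved by over 1.5 times, 20 of them with the same total.

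Genes near 0 in confined KO are limited by depth, and 3 libraries a group limit the rest. The LPS labels WT and KO were pooled and sex of the donors is not balanced. Total RNA per cell was not measured, and the balance between higher and lower depends on scaling and thresholds.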

Other observations

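Most cell cycle genes were not called in confined against nonconfined KO. LPS lowered 21 of 28 against nonconfined cells (median -1.27), beside 13.4% of all genes. In confined against nonconfined KO 5 were called lower (5.53% of all genes), 0 higher and 23 not called (median -0.60). The median against LPS was 0.47, with no member called by limma at the main scaling, or 11 higher and 0 lower (median 0.92) with library totals made equal. How far the list lies from LPS thus rests on scaling. *Cdc6*, which loads the replicative helicase, was at 746, 767 and 749 in nonconfined KO, 279, 252 and 276 in confined KO and 147, 192 and 241 in LPS (-1.48, adjusted p 6.67e-09 from nonconfined KO; 0.48, adjusted p 0.000882 from LPS), and *Mcm2*, a helicase subunit, at 789.8, 987 and 966 in nonconfined KO, 472, 414 and 364 in confined KO and 235, 287 and 375 in LPS.

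Of 12 genes of the ARP2/3 actin nucleator and its regulators, 1 was called lower than LPS and 0 higher, beside 12.9% and 10.7% of all genes (median -0.45, or -0.01 with library totals made equal). That gene, *Arpin*, an inhibitor of the complex, was at 144, 126 and 119 in nonconfined KO, 55, 70.4 and 50.1 in confined KO and 184, 248 and 302 in LPS (-2.01, adjusted p 2.52e-09; -1.15, adjusted p 0.00011 from nonconfined KO), below both in each library.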
